A study of Mus musculus with 24 samples.

Results

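The response of mouse cortical neurons to brain-derived neurotrophic factor (BDNF) after 12 h in the presence of a BET inhibitor was measured by comparing 6 arrays, out of 24 in the study. The arrays were chosen by their labels: 3 from cultures given BDNF with IBET858, and 3 from cultures given IBET858 without BDNF. The cells were primary cortical neurons from E18 mouse embryos, kept for 1 week in culture before treatment, with no strain, sex or genetic change given in the labels. BDNF was used at 50 ng per ml and IBET858 at 1 µM, so both groups carried the inhibitor and differed in BDNF. For context, 3 arrays with BDNF without inhibitor and 3 with the solvent DMSO, all at 12 h, were set beside them, and so were the 2 h arrays with BDNF and IBET858 and with IBET858 without BDNF, 3 of each. Replicates carry numbers in the labels and no statement that each was its own culture, and the p-values therefore speak of the spread among these arrays, which may be technical.

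BDNF binds the receptor tyrosine kinase TrkB, encoded by Ntrk2, and signals through MAP kinase, PI3 kinase and phospholipase C pathways to transcription factors such as CREB and SRF. In neurons this turns on immediate early genes, many of them transcription factors, and later effector genes for synapses, secretion and the cell surface. BET proteins (Brd2, Brd3 and their relatives) bind acetylated histones and help recruit P-TEFb, a kinase that releases paused RNA polymerase, and BET inhibitors displace them from chromatin.

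The values are log2 intensities from which each probe set's median over the 24 arrays had been subtracted. They show differences between arrays and not how abundant a transcript was, and whether a marker was expressed at all could not be read from them. A gene was called changed at a Benjamini-Hochberg adjusted p under 0.05 in limma, and differences are in log2 units, where ± gives the model's standard error (n = 3 arrays per group). Within groups the standard deviation of an array around its group mean was 0.072 to 0.178, with IBET858 at 12 h replicate 3 at 0.157, the second highest. That array enters every result on the 12 h response. On it the 5′ minus 3′ difference of the Gapdh control probe sets was -0.219, and the 5′ minus 3′ difference of the actin controls was 0.0459 to 0.0526 on the BDNF with IBET858 arrays, against -0.113 to -0.0289 on the IBET858 arrays. The part of these control differences in the results was not tested. Results without replicate 3 are given for the counts of the 12 h response and its differences. They are also given for some of the lists and genes, and for the named genes as a set. The number of arrays limits the precision.

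Genes were ranked for their promoters with a single chromosome left out. The promoters of the 3 genes that rose furthest among those with an entry in the RefSeq promoter table, and of the gene that fell furthest, are shown here, since these genes lead the response. Each runs from 250 bases before to 50 bases after a start listed by RefSeq, on build GRCm38.p6, 5′ to 3′. Capitals mark matches, on either strand, to TGACG (the half-site of the cyclic AMP response element), TGANTCA (AP-1), GCGNGGGCG (EGR proteins) and the CArG box of SRF, the 4 motifs searched. Where a gene has several starts, the most upstream is shown. For Egr2 a downstream start was added after its matches had been seen.
Serpinb2, chr1:107511173-107511472, plus strand: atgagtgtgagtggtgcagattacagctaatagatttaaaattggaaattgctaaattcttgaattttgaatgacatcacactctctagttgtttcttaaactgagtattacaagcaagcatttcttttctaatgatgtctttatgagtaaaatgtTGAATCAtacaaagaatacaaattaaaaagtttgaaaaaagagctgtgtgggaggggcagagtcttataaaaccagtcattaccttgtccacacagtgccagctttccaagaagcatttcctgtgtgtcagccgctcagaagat
Tnc, chr4:64046966-64047265, minus strand: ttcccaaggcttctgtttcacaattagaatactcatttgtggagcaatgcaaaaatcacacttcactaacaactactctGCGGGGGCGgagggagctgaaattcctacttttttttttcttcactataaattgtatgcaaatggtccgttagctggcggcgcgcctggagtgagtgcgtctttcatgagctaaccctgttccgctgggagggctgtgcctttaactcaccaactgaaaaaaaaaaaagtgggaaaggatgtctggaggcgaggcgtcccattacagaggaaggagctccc
Egr2, most upstream start, chr10:67535249-67535548, plus strand: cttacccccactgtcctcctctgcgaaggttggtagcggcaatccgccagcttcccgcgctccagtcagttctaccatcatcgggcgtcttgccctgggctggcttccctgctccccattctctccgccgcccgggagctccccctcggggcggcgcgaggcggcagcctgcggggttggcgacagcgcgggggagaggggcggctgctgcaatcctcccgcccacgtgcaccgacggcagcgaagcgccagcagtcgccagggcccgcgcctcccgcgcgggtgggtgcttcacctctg
Egr2, a downstream start, chr10:67537619-67537918, plus strand: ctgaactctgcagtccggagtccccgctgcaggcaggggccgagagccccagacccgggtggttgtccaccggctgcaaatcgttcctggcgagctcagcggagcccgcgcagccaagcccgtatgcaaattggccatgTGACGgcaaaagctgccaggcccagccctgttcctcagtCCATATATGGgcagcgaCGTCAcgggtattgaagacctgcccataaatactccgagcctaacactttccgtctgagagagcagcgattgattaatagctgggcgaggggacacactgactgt
Ephb6, chr6:41605261-41605560, plus strand: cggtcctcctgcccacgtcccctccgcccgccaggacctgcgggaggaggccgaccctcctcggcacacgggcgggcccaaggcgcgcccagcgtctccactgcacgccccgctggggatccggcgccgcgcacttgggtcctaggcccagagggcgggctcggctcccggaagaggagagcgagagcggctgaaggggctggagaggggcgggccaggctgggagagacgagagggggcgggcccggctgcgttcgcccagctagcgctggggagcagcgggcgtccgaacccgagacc
TGACG and CArG matches stood at none of the starts of Serpinb2, Tnc and Ephb6. The AP-1 match was found at 2 of 2 starts of Serpinb2, and the EGR match at 2 of 2 starts of Tnc. At Egr2 3 of 5 starts held TGACG and 4 of 5 held a CArG box, and the most upstream start held neither. Over all 32851 promoters of the table, TGACG was present in 20.8%, AP-1 in 7.81%, EGR in 5.55% and CArG in 1.63%. Among the 293 promoters of genes that rose over 2-fold the shares were 32.1%, 8.53%, 14.3% and 3.41%, and among the 109 of genes that fell over 2-fold 28.4%, 8.26%, 9.17% and 0.917%. In the 18110 promoters of all measured genes they were 26.5%, 6.38%, 8.70% and 1.35%. A match is a description of these letters and was not tested.

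BDNF changed 7150 of 18194 genes under IBET858 at 12 h, which is 39.3% of those tested, 2923 higher (16.1%) and 4227 lower (23.2%). The rises were larger than the falls. Among called genes 810 rose and 746 fell over 1.5-fold (4.45% and 4.10% of all genes), 290 rose and 103 fell over 2-fold, and 52 rose and 4 fell over 4-fold. In 3290 genes (18.1%) the 3 BDNF with IBET858 arrays lay all above the 3 IBET858 arrays, and in 4845 (26.6%) all below. The median over all genes was -0.065. Without IBET858 replicate 3 the count was 6513 (2670 higher and 3843 lower), of which 5980 were shared with the same sign, and the median was -0.031. When each array was set to its own median, 6856 genes were called, 46.3% of them higher, against 40.9% in the values as deposited.

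The genes with the largest changes were taken only where all arrays of one group lay above those of the other, so that their separation is given by the choice. Serpinb2, which encodes the plasminogen activator inhibitor PAI-2, had the largest rise of the named genes. It stood at 6.20, 6.01 and 6.16 with BDNF and IBET858, against -1.20, -1.20 and -1.89 with IBET858. The rise was 7.56 ± 0.17 (188-fold, limma adjusted p = 4.49e-18). Tnc encodes tenascin C, a glycoprotein of the extracellular matrix. It stood at 4.03, 3.79 and 3.74 with BDNF and IBET858, against -1.93, -1.96 and -1.87 with IBET858. The rise was 5.78 ± 0.19 (54.8-fold, limma adjusted p = 1.69e-15), and its 2 probe sets gave 4.68 and 6.87.

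Arc, an immediate early gene for a postsynaptic protein that acts in glutamate receptor endocytosis, stood at 2.97, 3.002 and 2.85 with BDNF and IBET858, against -2.23, -2.53 and -2.02 with IBET858. Its rise was 5.20 ± 0.14 (36.8-fold, limma adjusted p = 3.18e-17). Egr2, a zinc finger transcription factor of the immediate early class, stood at 1.73, 1.83 and 1.74 with BDNF and IBET858, against -2.74, -2.78 and -2.99 with IBET858. Egr2 rose by 4.60 ± 0.13 (24.3-fold, limma adjusted p = 1.09e-16). Srxn1 encodes sulfiredoxin, which repairs oxidised peroxiredoxins. It rose by 3.98 ± 0.067, although its 4 probe sets ranged between 2.68 and 4.70.

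Further down the list were genes of secretion, the cytoskeleton and signalling. C1ql3, a secreted C1q-like protein of synapses, rose by 3.96 ± 0.12, and Nefm, the medium neurofilament subunit, by 3.82 ± 0.10. Rrad, a small GTPase that restrains calcium channels, rose by 3.78 ± 0.11, and Nptx2, a pentraxin that clusters AMPA receptors, by 3.37 ± 0.086. Pim1, a serine/threonine kinase, rose by 3.26 ± 0.085 and Rasl11a, a Ras-like GTPase, by 3.15 ± 0.10. The interferon-inducible gene Ifi202b rose by 3.56 ± 0.13, Cgref1 by 3.07 ± 0.058 and Lancl3 by 3.03 ± 0.18. Slc17a6, the vesicular glutamate transporter VGLUT2, stood at 0.88, 0.92 and 0.80 with BDNF and IBET858, against -2.35, -2.53 and -2.68 with IBET858, a rise of 3.39 ± 0.076.

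The falls were smaller. Ephb6, a kinase-inactive Eph receptor, stood at -2.12, -2.01 and -2.04 with BDNF and IBET858, against 0.19, 0.18 and 0.15 with IBET858. It fell by 2.23 on the log2 scale (SE 0.088, 4.71-fold, limma adjusted p = 3.74e-14). Il6, which encodes the cytokine interleukin 6, stood at 0.72, 0.87 and 0.98 with BDNF and IBET858, against 2.90, 3.10 and 2.96 with IBET858, a fall of 4.38-fold. In cultures without inhibitor Il6 stood at -0.19, -0.36 and -0.04 with BDNF and at 0.05, 0.36 and 0.35 with DMSO, so the level with IBET858 was the highest of the 4 groups at 12 h. Pnma1 (-1.91 ± 0.077), Gucy1a1, a subunit of the nitric oxide receptor guanylyl cyclase (-1.84 ± 0.078), and Sybu, which links syntaxin vesicles to kinesin (-1.81 ± 0.092), fell as well. They were followed by Plet1os (-1.71 ± 0.15), the neurexophilin Nxph2 (-1.71 ± 0.16), the protocadherin Pcdh20 (-1.65 ± 0.22) and Gramd1c (-1.61 ± 0.12). Fam181a, Arhgef26, Gpr6, Omg, Slco4c1 and Pnpla6 fell by values between -1.60 and -1.44. Omg encodes oligodendrocyte myelin glycoprotein, which neurons express too.

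**Figure D1:**
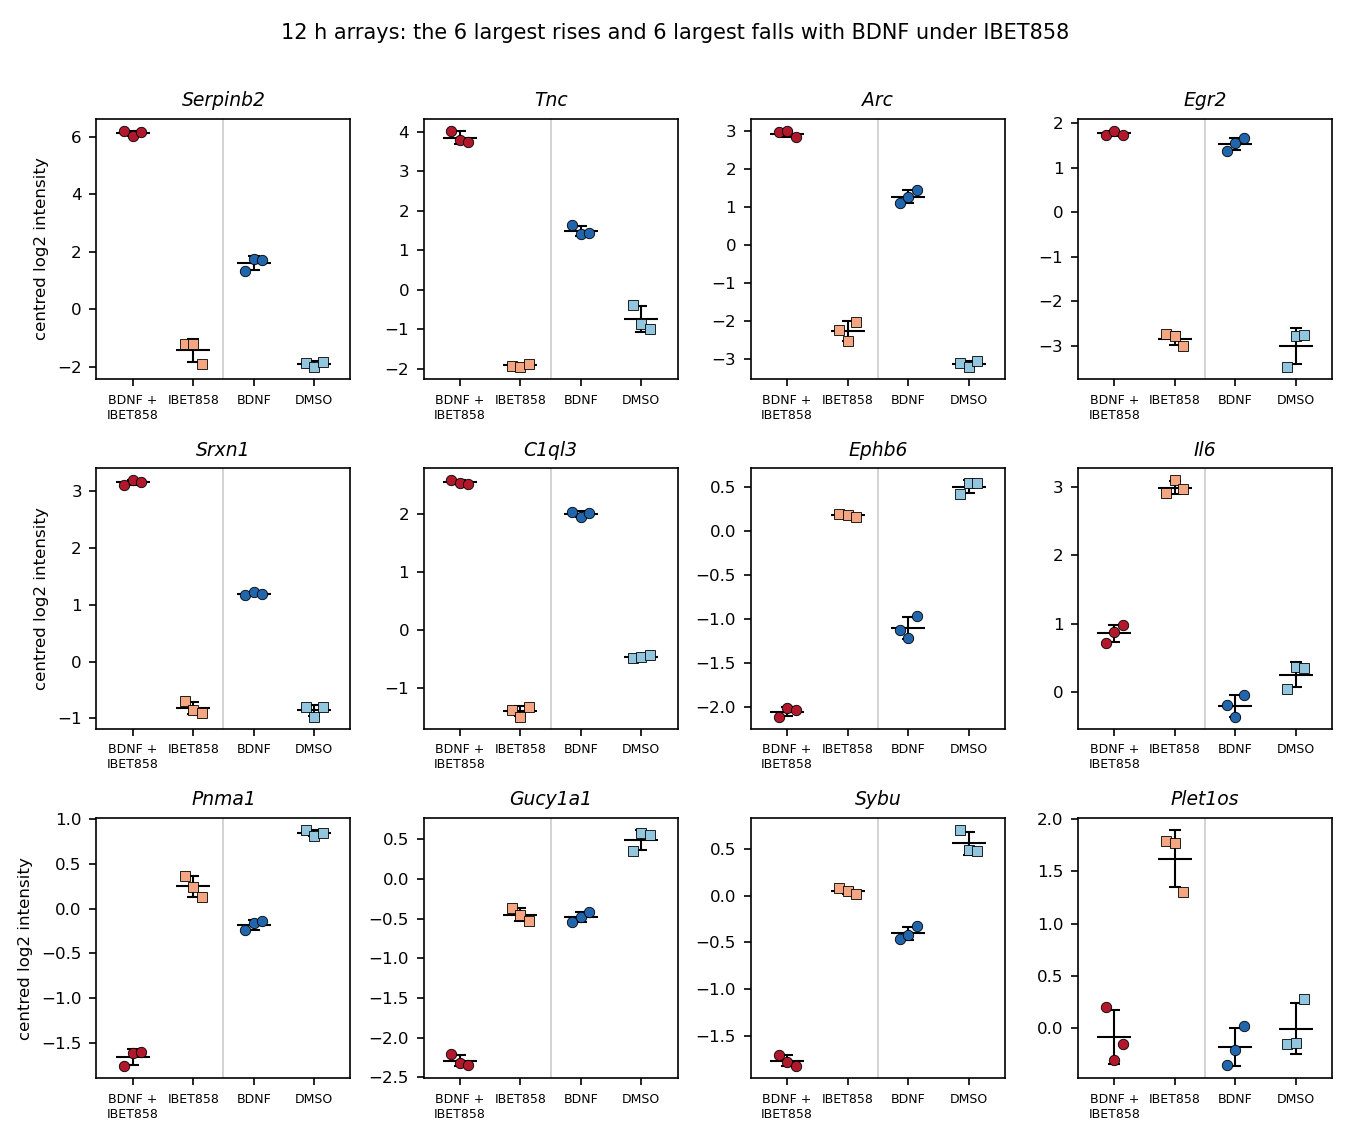
Centred log2 intensity (vertical axis, scale differs by panel) of the 6 genes with the largest rises and the 6 with the largest falls, for BDNF with IBET858, IBET858, BDNF and DMSO at 12 h. Points are single arrays, horizontal bars the mean and error bars the SD (n = 3). Genes were chosen without overlap between the BDNF with IBET858 and the IBET858 arrays, and Serpinb2 stands at 6.01 to 6.20 against -1.89 to -1.20.

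Genes that neuronal activity and growth factors are known to induce were taken by list. Of 36 measured activity-induced transcription factors 29 rose and 1 fell, with a median of 0.74, beside 16.1% higher, 23.2% lower and a median of -0.065 for all genes. Egr1, a zinc finger factor, rose by 2.25 ± 0.085, Nab2, a corepressor of EGR proteins, by 2.25 ± 0.14, Klf4 by 1.64 ± 0.11 and Fos by 0.49 ± 0.073. Myc rose by 1.04 ± 0.11. Nr4a3, an orphan nuclear receptor of the same class, fell by 0.49 on the log2 scale, a call lost without BDNF with IBET858 replicate 3, where 28 of the list rose and 0 fell. Npas4 was at -0.02 (adjusted p = 0.947). Of 41 activity-induced effector genes 34 rose and 2 fell, with a median of 1.28. Leaving out single 12 h arrays gave 27 to 29 rises of the transcription factors, and without IBET858 replicate 3 both lists gave the numbers of the full set. Of the effector genes 1 was called lower, in place of 2, without BDNF with IBET858 replicate 1 or without IBET858 replicate 1. Rgs2, which limits G protein signalling, was at -0.77 ± 0.19 and fell. Bdnf itself was at -0.11 ± 0.26 (adjusted p = 0.787), with arrays at -0.05, 0.02 and 0.06 with BDNF and IBET858, against 0.09, 0.03 and 0.24 with IBET858.

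MAP kinase feedback regulators, which dampen the signal downstream of receptors such as TrkB, rose in 15 of 24 cases and fell in 2, with a median of 0.64. Dusp6, a phosphatase of ERK, rose by 2.44 ± 0.082, Spry2 by 2.09 ± 0.18, Dusp4 by 1.89 ± 0.16 and Spred3 by 1.71 ± 0.24. Among the neurotrophins, Trk receptors and adaptors 9 of 22 rose and 4 fell, led by the sortilin-related receptor Sorcs3 at 2.00 ± 0.15. Their median was -0.017, beside -0.065 for all genes. Ntrk2, the receptor for BDNF, rose by 0.20 ± 0.055, while its 8 probe sets lay between -0.33 and 0.60. Neuropeptides and granins rose in 13 of 28 cases and fell in 4, with Pnoc at 2.71 ± 0.13, Nts at 2.71 ± 0.25, Gal at 1.76 ± 0.17 and Vgf at 1.49 ± 0.26. The called shares of these lists were 70.8%, 59.1% and 60.7% in that order, beside 39.3% of all genes.

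Ribosome biogenesis genes rose in 33 of 40 cases and fell in 1, with a median of 0.41, and in 31 and 1 without IBET858 replicate 3. Ltv1, which acts in export of the small subunit, rose by 1.23 ± 0.065, and Ddx21, a nucleolar helicase, by 1.16 ± 0.061. Of 39 cytosolic ribosomal proteins 2 rose and 12 fell, so that 35.9% were called, beside 39.3% of all genes. Their median was -0.05, near that of all genes at -0.065, and with each array set to its median 7 fell. Heat shock genes rose in 10 of 18 cases and fell in 2, with the chaperone genes Hspa1b at 1.18 ± 0.12 and Hsph1 at 0.95 ± 0.062. The amino acid and endoplasmic reticulum stress genes rose in 14 of 41 cases and fell in 5, with Ddit3 at 0.88 ± 0.11 and Atf5 at -0.55 ± 0.081. The called shares were 85% for ribosome biogenesis, 66.7% for heat shock and 46.3% for these stress genes, beside 39.3% of all genes.

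Cholesterol synthesis genes fell in 13 of 21 cases and rose in 1, with a median of -0.24. With each array set to its median 10 fell, and 11 fell without IBET858 replicate 3, with a median of -0.295. In the full set the called share was 66.7%, beside 39.3% of all genes. Tm7sf2, a sterol reductase, was at -1.08 ± 0.14, the decarboxylase Mvd at -0.81 ± 0.12 and Fdps at -0.55 ± 0.060. The Fdps probe sets were at -1.035 and -0.072, the second not called (limma adjusted p = 0.655). Mitochondrial respiratory chain genes fell in 18 of 48 cases and rose in 0, with a median of -0.11. That is 37.5% called, all lower, beside 39.3% called and 23.2% lower among all genes. With each array set to its median 12 fell, beside 3683 of all 18194 genes. Of the 11 histone genes measured 5 fell and 1 rose, a called share of 54.5%. Their array medians were 0.566 to 0.727 with BDNF and IBET858, against 0.864 to 1.05 with IBET858. Without inhibitor they were -0.72 to -0.428 with BDNF and -0.65 to -0.528 with DMSO, so the level with IBET858 was the highest of the 4 groups at 12 h. With BDNF in the absence of inhibitor 3 of the 11 rose and 2 fell. H3c4 was at -1.17 ± 0.17, H2bc18 at -0.96 ± 0.23 and H3c11 at -0.83 ± 0.13, and since histone copies are close in sequence a probe set can read several. BET and P-TEFb genes were called in 8 of 19 cases, 4 each way, a share of 42.1% beside 39.3% of all genes: Ell2, an elongation factor subunit, was at 0.95 ± 0.070 (probe sets at -0.16 and 2.07), Brd3 at -0.26 ± 0.049, Brd2 at 0.10 ± 0.057 (adjusted p = 0.179) and Hexim1, an inhibitor of P-TEFb, at -0.15 ± 0.10 (adjusted p = 0.241).

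Presynaptic proteins rose in 8 of 39 cases and fell in 15, and postsynaptic proteins rose in 9 and fell in 9 of 33, so that 59.0% and 54.5% were called, beside 39.3% of all genes. The scaffold Dlgap2 rose by 2.13 ± 0.15 and Homer1 by 1.28 ± 0.057, with 6 Homer1 probe sets between 0.24 and 3.03. Glutamate receptors were split 6 and 6 of 20, with Grm8 at 1.25 ± 0.10 and Grm2 at -1.35 ± 0.24. Voltage-gated channels rose in 10 and fell in 16 of 43, with the potassium channel Kcnh2 at 1.64 ± 0.065 and the sodium channel genes Scn1a at -1.21 ± 0.066 and Scn2a at -1.03 ± 0.10. The called shares were 60% for glutamate receptors and 60.5% for voltage-gated channels, beside the same 39.3%. Gad2, which makes GABA, rose by 1.28 ± 0.11.

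Genes of the extracellular matrix, proteases and serpins rose in 14 of 43 cases and fell in 5, with tissue plasminogen activator, Plat, at 2.71 ± 0.082 and the protease Adamts1 at 2.05 ± 0.16 beside Serpinb2 and Tnc. Their median was -0.0041, beside -0.065 for all genes, and 44.2% were called, beside 39.3%. Axon guidance genes rose in 13 and fell in 15 of 46, with Sema3e at 1.85 ± 0.27 and Efnb3 at -1.37 ± 0.057. NF-kappaB and inflammatory genes rose in 7 and fell in 5 of 32, with the cyclooxygenase gene Ptgs2 at 1.44 ± 0.22, while Il6 fell. The called share of this list was 37.5% and that of the cell cycle list 45.0%, both near that of all genes. Cell cycle genes rose in 11 and fell in 7 of 40, led by the inhibitor Cdkn1a at 2.10 ± 0.069, and p53 targets rose in 7 and fell in 6 of 20, with Bbc3, a death-promoting BCL2 relative, at -1.03 ± 0.077. Fatty acid synthesis genes rose in 5 and fell in 6 of 17, with Me1 at 1.62 ± 0.11, and without IBET858 replicate 3 the rises numbered 2. Glycolysis genes rose in 7 and fell in 4 of 21, with the hexokinase Hk2 at 1.24 ± 0.087 and Pfkm at -0.82 ± 0.061. GABA genes rose in 3 and fell in 5 of 13, caveolins and cavins in 1 and 1 of 8, and of 4 sex-linked transcripts Eif2s3y alone was called, at -0.40 ± 0.10. Its 2 probe sets were at 0.22 (adjusted p = 0.137) and -1.02, and the call was lost in a fit of the 6 arrays alone (adjusted p = 0.0583). Called shares were 60.9% for axon guidance, 65% for p53 targets, 64.7% for fatty acid synthesis and 52.4% for glycolysis. They were 61.5% for GABA genes and 25% each for caveolins and sex-linked transcripts, beside 39.3% of all genes.

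Markers of cell types are set beside 16.1% of all genes higher and 23.2% lower, and in bulk samples fewer cells of a type and less RNA per cell cannot be told apart. Neuron markers rose in 6 and fell in 6 of 15, excitatory neuron markers rose in 3 and fell in 9 of 19, and interneuron markers rose in 4 and fell in 5 of 18. Astrocyte markers rose in 4 and fell in 1 of 16, progenitor markers rose in 6 and fell in 0 of 14, oligodendrocyte markers rose in 0 and fell in 3 of 13, microglia markers rose in 2 and fell in 1 of 15, and vascular markers rose in 0 and fell in 2 of 20. Without IBET858 replicate 3 the vascular falls, Cdh5 and Kcnj8, lost their calls (limma adjusted p = 0.0903 and 0.14). The microglia fall, C1qc (0.135), and the oligodendrocyte marker Sox10 (0.199) lost theirs too. Mbp and Mag of the oligodendrocyte list, and Cd68 and Cx3cr1 of the microglia list, kept theirs. The progenitor marker that rose most was Vim, an intermediate filament gene, at 2.86 ± 0.075. The array medians of the neuron list were 0.0669 to 0.145 with BDNF and IBET858, against -0.326 to -0.102 with IBET858, and those of the microglia list -0.318 to -0.228 against -0.403 to -0.335. The array medians of the progenitor list were 0.143 to 0.169 with BDNF and IBET858, against -0.115 to -0.0153 with IBET858. Those of the vascular list were -0.117 to -0.0404 with BDNF and IBET858, against -0.0274 to 0.0867 with IBET858. In these 4 lists the groups did not overlap, nor did they in 18.1% (above) and 26.6% (below) of single genes. The median change of the members was -0.12 for neuron, -0.069 for microglia, 0.22 for progenitor and -0.11 for vascular markers. For the neuron and microglia lists its sign was thus opposite to that of the shift in array medians. The shares called were 80%, 20%, 42.9% and 10% in that order, beside 39.3% of all genes. In the other 4 lists the groups overlapped. Their medians with BDNF and IBET858 were -0.451 to -0.368 for excitatory neurons, against -0.412 to -0.182 with IBET858, and -0.074 to 0.0127 for interneurons, against -0.0557 to 0.0313. For astrocytes they were -0.0924 to -0.0151 with BDNF and IBET858, against -0.131 to -0.0593 with IBET858, and for oligodendrocytes -0.151 to -5.44e-06 against -0.0255 to 0.0558. The part of these markers in the results was not tested.

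**Figure D2:**
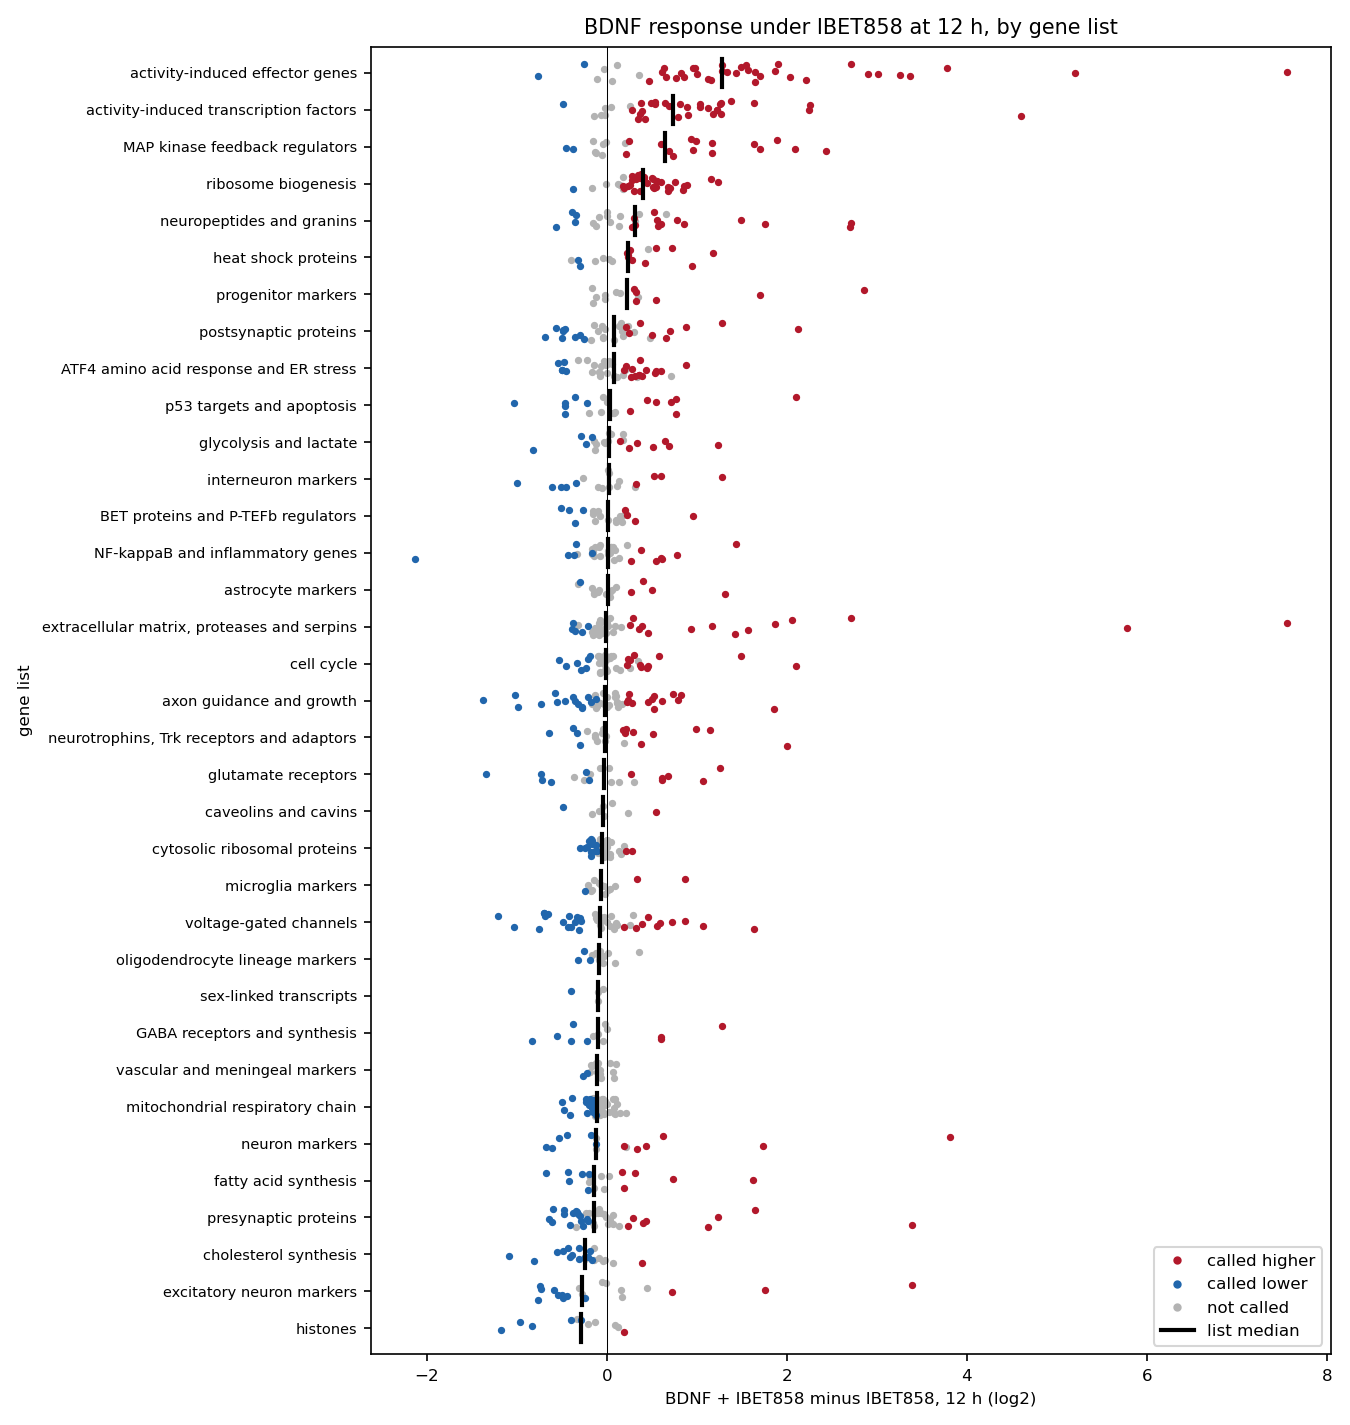
Log2 change of BDNF with IBET858 over IBET858 at 12 h (horizontal axis) for members of 35 gene lists (vertical axis), ordered by list median (black bar). Red points were called higher, blue lower and grey not called, and the activity-induced effector list has the highest median, 1.28.

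To see how the response compared with that to BDNF without inhibitor, BDNF was set against DMSO at 12 h, with no array in common. There 7463 genes were called (41.0%), 3067 higher (16.9%) and 4396 lower (24.2%). Of the 2923 genes that rose under IBET858, 1863 also rose without it (63.7% of these, 60.7% of 3067), 921 were not called and 139 fell. Of the 4227 that fell, 2771 fell in both (65.6% of these, 63.0% of 4396), 1381 were not called and 75 rose. Over all genes Pearson's r was 0.695 and Spearman's rho 0.609, given as a description. The 2 responses rest on arrays of 1 experiment.

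The difference between the responses was called in 2945 genes (16.2%), 1627 higher with the inhibitor and 1318 lower. Without IBET858 replicate 3 the count was 2627, of which 2315 were shared with the same sign. Of the 1627, 976 were genes that fell with BDNF without inhibitor and 226 genes that rose. Of the 1318, 747 were genes that rose without inhibitor and 152 genes that fell. A difference called higher can thus be a smaller fall, and one called lower a smaller rise. Serpinb2 rose by 7.56 with IBET858 and by 3.51 without it, a difference of 4.04 ± 0.25 (limma adjusted p = 3.29e-10). Tnc rose by 5.78 with IBET858 and by 2.23 without it (difference 3.54 ± 0.27), and Slc17a6 by 3.39 and 1.20 (difference 2.19 ± 0.11). Ebi3, a subunit of the cytokines IL-27 and IL-35, rose by 2.31 with IBET858 and was at -0.78 without it, and Gxylt2, a xylosyltransferase of Notch, rose by 2.99 and was at 0.26. Pcsk6, a proprotein convertase, rose by 1.47 and was at -0.61.

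Other genes rose further with BDNF when the inhibitor was absent. Chrna1, the alpha subunit of the muscle acetylcholine receptor, stood at 0.74, 0.53 and 0.09 with BDNF and IBET858, against -0.19, -0.35 and -0.12 with IBET858. Without inhibitor it stood at 3.72, 3.69 and 3.64 with BDNF, against -0.07, -0.15 and -0.10 with DMSO, and the difference between responses was -3.12 ± 0.19 (limma adjusted p = 2.78e-10). Cyp26b1, which clears retinoic acid, was at -0.22 with IBET858 and 2.89 without it, Cthrc1 at 0.37 and 3.27, and Gask1b at 0.46 and 3.03. The metallothionein gene Mt2 was at 0.06 and 2.44. Gsx1, a homeobox gene, was at -1.28 with IBET858 and 1.10 without it, and its IBET858 arrays stood at 0.80, 0.97 and 1.87, the last being replicate 3. Without that replicate Gsx1 was at -0.95 under IBET858 (limma adjusted p = 4.5e-07).

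**Figure D3:**
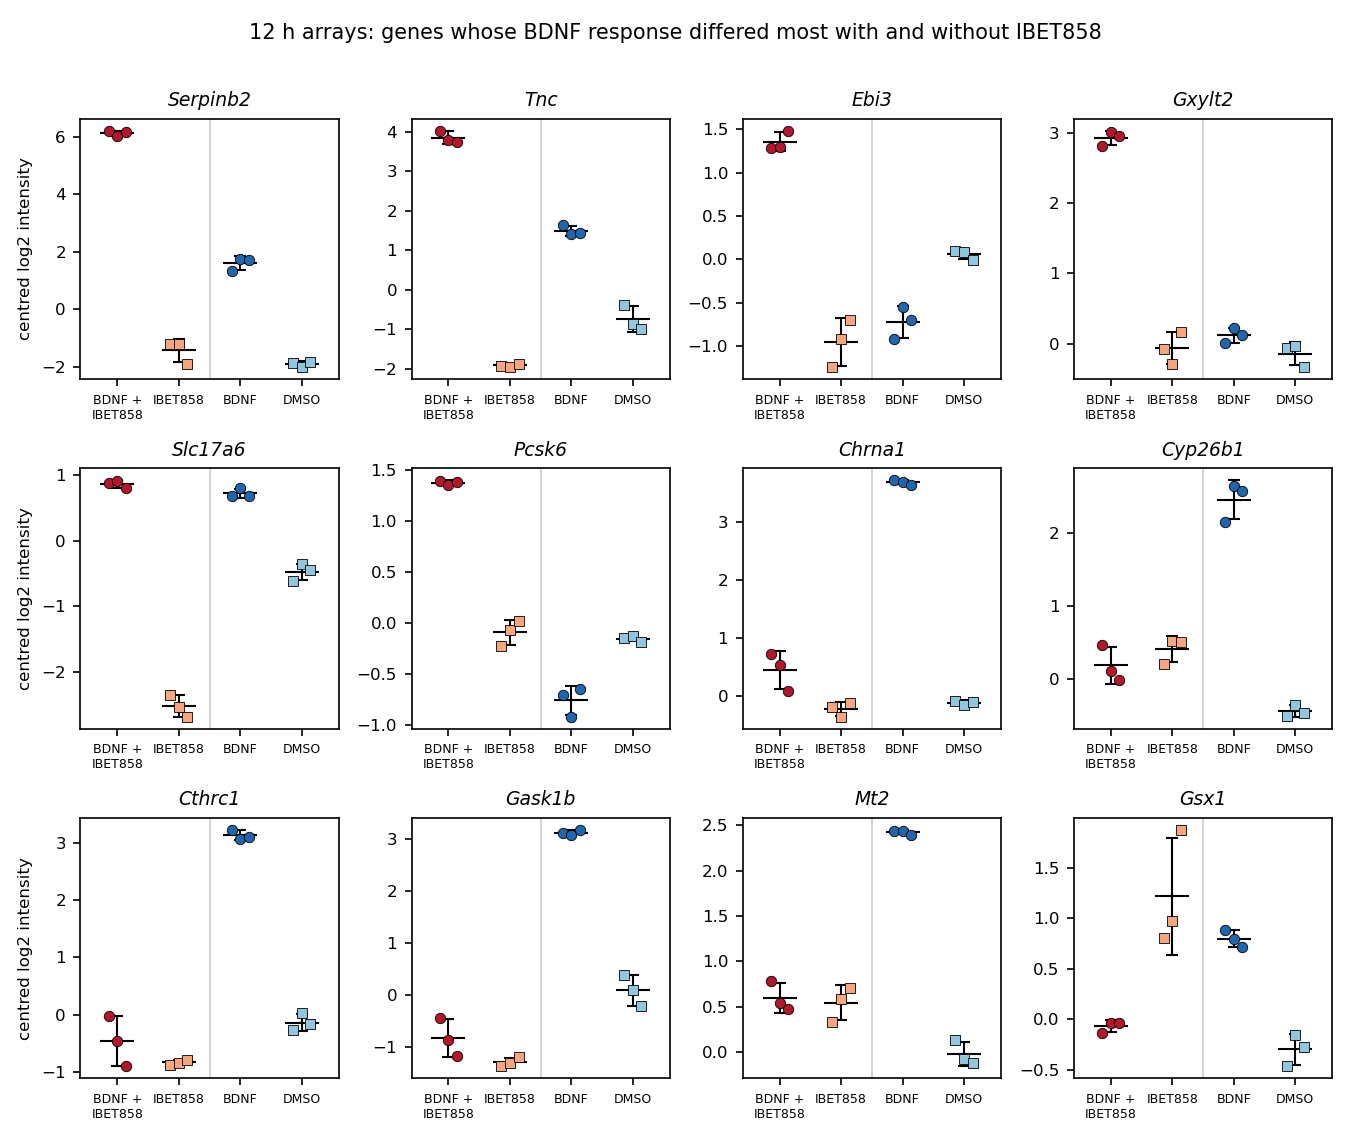
Centred log2 intensity (vertical axis, scale differs by panel) of the 6 genes with the highest and the 6 with the lowest difference between the BDNF responses with and without IBET858, at 12 h. Points are arrays, horizontal bars means and error bars SD (n = 3), and Chrna1 stands at 3.64 to 3.72 on the BDNF arrays and at 0.09 to 0.74 on the BDNF with IBET858 arrays.

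The genes that fell furthest with BDNF in the absence of inhibitor, apart from Arhgef26, were Smim17 (-1.32 with IBET858 and -2.27 without it), Ssbp2 (-0.66 and -2.11), Armh4 (-1.38 and -2.05) and Glis3 (0.01, adjusted p = 0.973, and -1.99). The difference between responses was called in each, at 0.95, 1.45, 0.67 and 2.00 in that order.

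Several of the largest rises had no called difference. Egr2 was at 4.60 with IBET858 and 4.54 without it (adjusted p of the difference = 0.859), Nefm at 3.82 and 3.94 (adjusted p = 0.63) and Nptx2 at 3.37 and 3.26 (adjusted p = 0.616). Within the lists, the difference was called higher in 4 and lower in 10 of 36 activity-induced transcription factors, and higher in 11 and lower in 8 of 41 effector genes. It was called lower in 13 and higher in 2 of 40 ribosome biogenesis genes, whose median was 0.41 with IBET858 and 0.60 without it, and lower in 8 and higher in 1 of 41 amino acid and endoplasmic reticulum stress genes. Over all genes 8.94% were called higher and 7.24% lower.

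**Figure D4:**
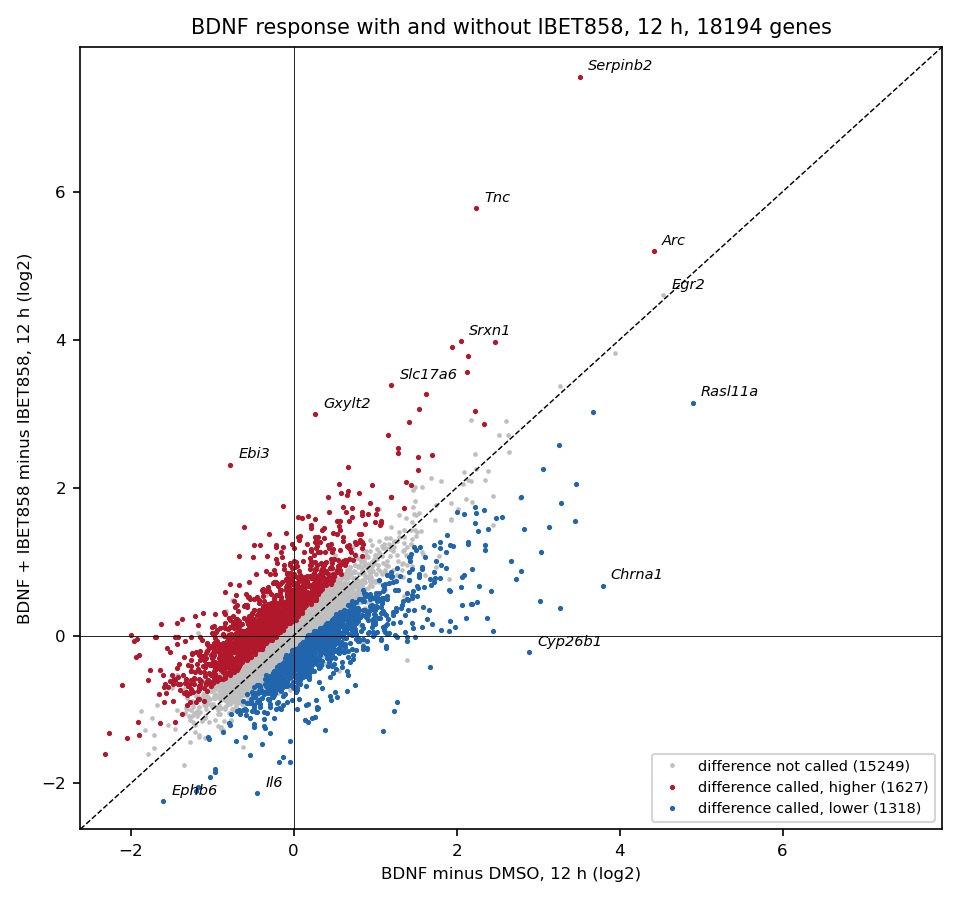
Log2 response to BDNF under IBET858 (vertical axis) against that without it (horizontal axis) at 12 h, 1 point per gene. Red and blue points have a called difference, higher (1627) and lower (1318) with the inhibitor, and the dashed line marks equal responses.

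At 2 h the same contrast called 3850 genes (21.2%), 1172 higher (6.44%) and 2678 lower (14.7%). Of the 2923 genes that rose at 12 h, 524 also rose at 2 h (17.9% of these, 44.7% of 1172) and 452 fell at 2 h, and of the 4227 that fell at 12 h, 1075 fell at 2 h (25.4% of these, 40.1% of 2678) and 107 rose. The difference between times was called in 5875 genes (32.3%), 3022 higher at 12 h (16.6%) and 2853 lower (15.7%), against 5163 genes without IBET858 replicate 3. Tnc rose by 5.78 at 12 h and by 1.62 at 2 h (difference 4.15 ± 0.27), and C1ql3 by 3.96 and 0.73. Slc17a6 was at 3.39 and -0.11, Lancl3 at 3.03 and -0.28, Ifi202b at 3.56 and 0.30, and Gxylt2 at 2.99 and -0.04. Pecam1, an adhesion molecule of endothelial cells, was at -0.21 at 12 h (adjusted p = 0.184) and 3.37 at 2 h. Caprin2, an RNA-binding protein, was at 0.19 and 3.53, Tmem54 at 0.04 and 2.83, and Rcc1, the exchange factor of Ran, at 0.50 and 2.90. Polg2 was at -1.05 and 1.53, and H3c4 at -1.17 and 1.22. Ribosome biogenesis genes, which rose in 33 of 40 cases at 12 h, rose in 2 and fell in 16 at 2 h.

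**Figure D5:**
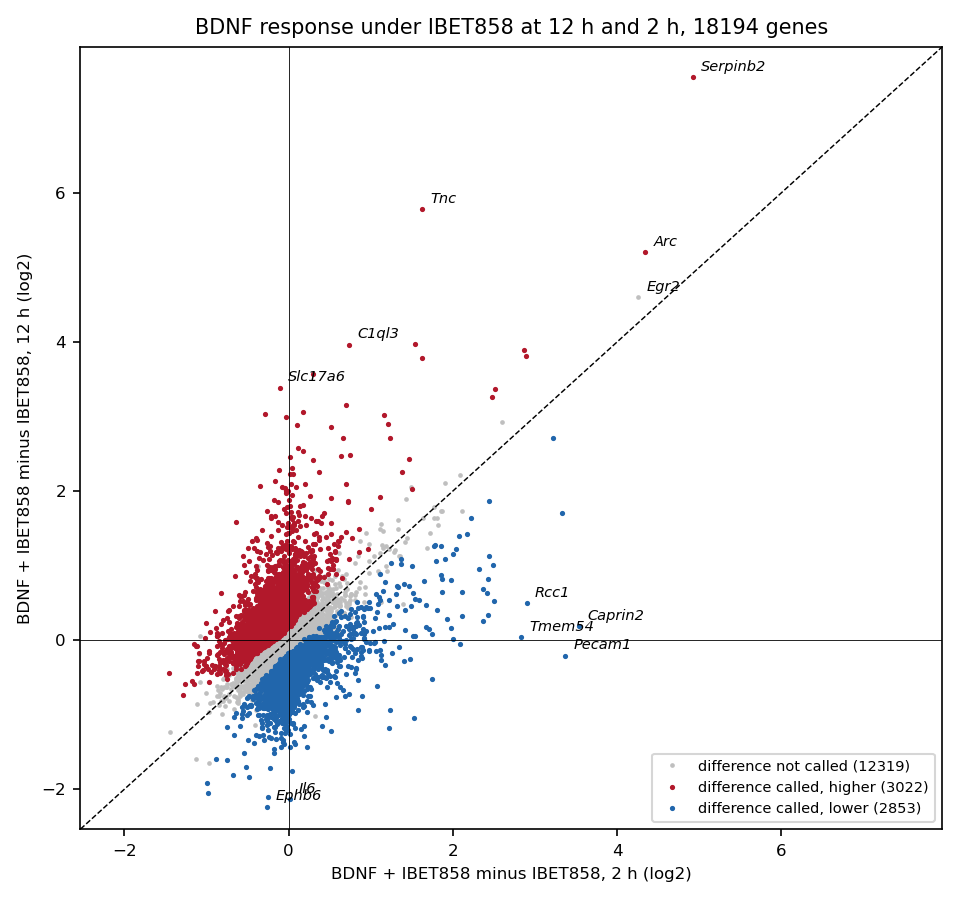
Log2 response to BDNF under IBET858 at 12 h (vertical axis) against 2 h (horizontal axis), 1 point per gene. Red and blue points have a called difference between times, higher (3022) and lower (2853) at 12 h, and Pecam1 lies at 3.37 on the horizontal axis and -0.21 on the vertical.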

How the data were processed

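RNA of mouse cortical neuron cultures was measured on 24 Affymetrix arrays, 3 per group. The deposited values are log2 intensities made by the authors with RMA, per the submitters' processing notes; the log base is not written in the table. All 45101 probe sets of the deposited table had an across-array median of 0 (tolerance 1e-06, 24 arrays), so levels and a filter on dim genes could not be had. RMA sets arrays to 1 distribution, which hides a change in total mRNA. At 12 h the poly-A spike control probe sets averaged 0.429 to 0.675 with BDNF and IBET858, and 0.5 to 0.857 with IBET858. On the 12 h arrays without inhibitor they averaged -0.501 to 0.0553. The part of these differences in the results was not tested. Other processing is not given in the sources used here.

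The platform annotation named 1 gene for 34958 probe sets and several for 932, while 9211 had no entry. RefSeq names of GRCm38.p6 were found through Entrez for 34754 probe sets. A gene's value was the mean of its probe sets, giving 18194 genes, 9012 with more than 1 probe set. In 351 of these (3.89%) probe sets were called in opposite directions. Group means of 8 groups were fitted with limma 3.58.1 in R 4.3.3 (16 residual degrees of freedom, eBayes, two-sided, Benjamini-Hochberg over all genes), and the method was tested on simulated data.

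The comparisons were BDNF with IBET858 against IBET858 at 12 h and at 2 h, BDNF against DMSO at 12 h, and both differences. Named were the 15 highest and 15 lowest called genes without overlap between arrays, the 6 highest and 6 lowest of each difference, the 5 highest and lowest of BDNF without inhibitor, up to 4 members of each of the 35 lists, and a fixed set including Bdnf and Egr1; predicted genes were left out. Nr4a3, Npas4 and Rgs2 were named after their values were seen. Members, lists and rules were chosen with earlier results of these data known. Promoter motifs, genes and starts were settled after their matches had been looked at: other genes' promoters were searched before those shown, which follow rank outside the chromosome left out. Alternatives covered arrays left out, a replicate block, array weights, scaling, the summary of probe sets and the variance prior. The deviations of same-numbered arrays correlated at -0.153 to -0.0764 between BDNF with IBET858 and IBET858 at 12 h, and at -0.153 to 0.0904 over all pairs of 12 h groups, so no pair was over 0.1.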

Additional observations from a re-analysis of the deposited data

Results flagged for a closer look

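The BDNF response at 12 h differed with and without IBET858 in 2945 genes, by a limma test of the difference itself (Benjamini-Hochberg adjusted p under 0.05). It was called in 85 of the 172 genes named by rule, of which the 36 named for the largest changes under IBET858, without it, or between these responses are given here and the other 49 are not. The log2 response was higher with IBET858 for Serpinb2 (4.04), Tnc (3.54), Ebi3 (3.09), Gxylt2 (2.73), Slc17a6 (2.19), Pcsk6 (2.08), Glis3 (2.00), Srxn1 (1.92), Pim1 (1.64), Rrad (1.64), Cgref1 (1.52), C1ql3 (1.49), Ssbp2 (1.45), Ifi202b (1.43), Smim17 (0.95), Lancl3 (0.80), Arc (0.78), Arhgef26 (0.72) and Armh4 (0.67). For Arhgef26, Ssbp2, Smim17 and Armh4 both responses were falls, of which the one with IBET858 was smaller. It was lower with IBET858 for Ephb6 (-0.63), Sybu (-0.85), Gucy1a1 (-0.87), Pnma1 (-0.89), Gramd1c (-1.07), Slco4c1 (-1.07), Pcdh20 (-1.51), Plet1os (-1.54), Nxph2 (-1.66), Il6 (-1.68), Rasl11a (-1.75), Gsx1 (-2.38), Mt2 (-2.39), Gask1b (-2.57), Cthrc1 (-2.90), Cyp26b1 (-3.11), Chrna1 (-3.12). The Lancl3 difference (adjusted p = 0.0388) was not called in 10 of 20 alternative settings.

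Between 12 h and 2 h the response under IBET858 differed in 5875 genes by the same test. Among the 6 highest and 6 lowest it was higher at 12 h for Tnc (4.15), Slc17a6 (3.49), Lancl3 (3.32), Ifi202b (3.26), C1ql3 (3.23), Gxylt2 (3.03), and lower at 12 h for H3c4 (-2.39), Rcc1 (-2.40), Polg2 (-2.58), Tmem54 (-2.79), Caprin2 (-3.34), Pecam1 (-3.58). Genes were listed here for a called difference, many of them because it was among the largest. Groups of 3 arrays are too small for a test of single outlying arrays.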

How the results depend on the processing

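The counts of called genes stayed within 1.5 times under the alternatives tried, except where the number of features or the threshold changed by construction. Testing each probe set gave 14744 for BDNF under IBET858 at 12 h, 15030 for BDNF without inhibitor, 5116 for their difference, 7681 at 2 h and 11675 for the difference between times. Keeping only genes with 2 or more probe sets gave 4322, 4578, 1939, 2345 and 3596, and asking for over 1.5-fold gave 1556 for BDNF under IBET858 at 12 h. Leaving out each 12 h array in turn gave 6181 to 7211, 6664 to 7851, 2321 to 3107, 3740 to 4396 and 5119 to 6267 in the same order. A fit of the 6 arrays of the comparison alone called 5399 genes (29.7%) under IBET858 at 12 h, beside 7150 (39.3%). With the replicate number as a block, 6934 genes were called under IBET858 at 12 h (2844 higher and 4090 lower); the arrays share only a number. With both arrays that stand apart left out the count was 7107, and with replicate 3 of IBET858 left out and each array set to its median, a setting chosen after seeing the data, it was 6509. Of 172 genes named by rule, which leave out Nr4a3, Npas4 and Rgs2, 162 were called at 12 h and 152 were called under all settings tried. Of 3694 values for named genes, 3629 kept direction and call, 53 lost the call, 6 gained it and 6 changed sign, none of these called: Mt2, Tmem54 and Glis3, each with 1 array left out. Leaving out any of the 12 h arrays gave -0.0499 to 0.139 for Mt2, -0.0511 to 0.136 for Tmem54 and -0.293 to 0.291 for Glis3. Without replicate 3 of IBET858, 167 of 172 named genes kept direction and call and 5 lost it: Cdh5, C1qc, Sox10, Kcnj8 and Hexim2. Hexim1 was called at -0.249 with both arrays that stand apart left out and at -0.200 with array weights. The number of arrays limits these comparisons.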
